A study of Homo sapiens with 23 samples.

Results

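Transcript levels of 9 genes of plasminogen activation and blood coagulation were followed in drug-resistant clones of a human melanoma line and in the untreated cells they came from. The genes were taken from the deposited expression table by symbol, as the rows named PLAU, PLAT, PLAUR, SERPINE2, F3, TFPI, TFPI2, F2R and THBD, and all 9 were found among its 35438 genes. Plasminogen is a circulating zymogen that becomes plasmin, a broad protease of fibrin and pericellular matrix, when it is cut by urokinase (PLAU) or tissue plasminogen activator (PLAT). Urokinase is held at the cell surface by its receptor (PLAUR), and serpins, protease inhibitors that trap their target in a covalent complex, shut the activators down. Coagulation starts when tissue factor (F3) binds factor VII, and it runs through factor X to thrombin, which cleaves fibrinogen and signals to cells through protease-activated receptors. Tumour cells, melanoma among them, can make components of both systems, and the tissue factor and urokinase systems have been studied in invasion and metastasis.

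WM989 A6-G3 is an established line from a BRAF-mutant melanoma, passed through a single-cell bottleneck, and its genotype is labelled WT in all groups. Untreated cells (3 libraries) received no drug. Clones 7, 8 and 9 (3 libraries each) were resistant to vemurafenib, a BRAF inhibitor, and were grown in 1 µM of it. Clones 10, 12 and 13 (3 libraries each) and clone 11 (2 libraries, replicates 2 and 3) were resistant to dabrafenib, a BRAF inhibitor, combined with trametinib, a MEK inhibitor, and were grown in 250 nM and 2.5 nM of these. Each clone was grown from 1 colony, so a clone is 1 resistant lineage. Resistance and the presence of drug cannot be told apart in these groups, nor can the choice of drug and the clones that met it. The labels call the libraries of a group biological replicates but do not state what separated them. The p-values therefore measure the spread between these libraries, which may be technical.

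Poly(A) RNA was sequenced in 23 libraries, and the levels below are TPM, a relative transcript abundance corrected for transcript length, after a scaling that evens out composition between libraries. The depth behind a TPM value is unknown. Clone 10 replicate 1 stood apart with 14415 genes above 0 against 18671 to 24039 in the others. Leaving it out kept every call on a member against untreated cells and by the F test. The called pairs of clones for TFPI2 then went from 6 to 8. Clone 7 replicate 1 was the next lowest with 18671, followed by clone 9 replicate 2 with 21021. Of all libraries, clone 7 replicate 1 alone had PLAU listed at 0. The 8 melanocyte lineage markers checked were all at 1 TPM or more in untreated cells, with a summed level of 12700 to 13100 TPM, and 5 to 7 of them were in the clones, with a sum of 30.8 to 479 TPM. Of 7 fibroblast markers, 2 reached 1 TPM in untreated cells and 6 in every clone (summed level 53.4 to 63.9 against 295 to 1140 TPM), while THY1 stayed at or under 0.737 TPM in the clone libraries. The 9 endothelial markers, from a cell type rich in TFPI and THBD, summed to 2.64 to 2.96 TPM in untreated cells and 3.06 to 6.51 TPM in the clones. The part of these marker shifts in the values below was not tested. In bulk RNA, fewer cells that carry a transcript and less of it per cell cannot be told apart.

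A set of 5 genes rose in all 7 clones: F3, the trigger of coagulation, its inhibitor TFPI, the related inhibitor TFPI2, the urokinase receptor PLAUR and the thrombin receptor F2R. PLAU fell in all 7 and PLAT in 6. SERPINE2, a serpin that blocks thrombin and urokinase, fell in clones 10 and 11 and was not called in the others, and THBD, the thrombin-binding cofactor of protein C activation, was close to absent from the table. Genes were called changed by limma where the p adjusted by Benjamini-Hochberg over the 15657 genes tested was under 0.05 and the log2 fold change, on the scale of log2(scaled TPM + 1), was at least 1 in size. With the mean of the 7 clones set against untreated cells, 5 of the 8 members tested were called higher, where 10.9% of all genes tested were, and 2 were called lower, where 7.91% were. The members were chosen with earlier results of these data known. Shares of members beside those of all genes, here and below, are therefore a description and not a test. In clones 7 to 13 taken singly, 5 members were called higher in each, where 11.0, 11.0, 11.5, 11.8, 11.7, 11.5 and 12.3% of all genes were. Members called lower numbered 2, 2, 1, 3, 3, 2 and 2, where 8.54, 9.29, 8.29, 10.5, 9.53, 8.02 and 8.35% of all genes were. The share of all genes called higher in each of the 7 clones was 4.87%, and the share called lower in each was 4.18%. All clone contrasts share the same 3 untreated libraries. The plot of the 8 tested genes by library shows these levels.

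**Figure D1:**
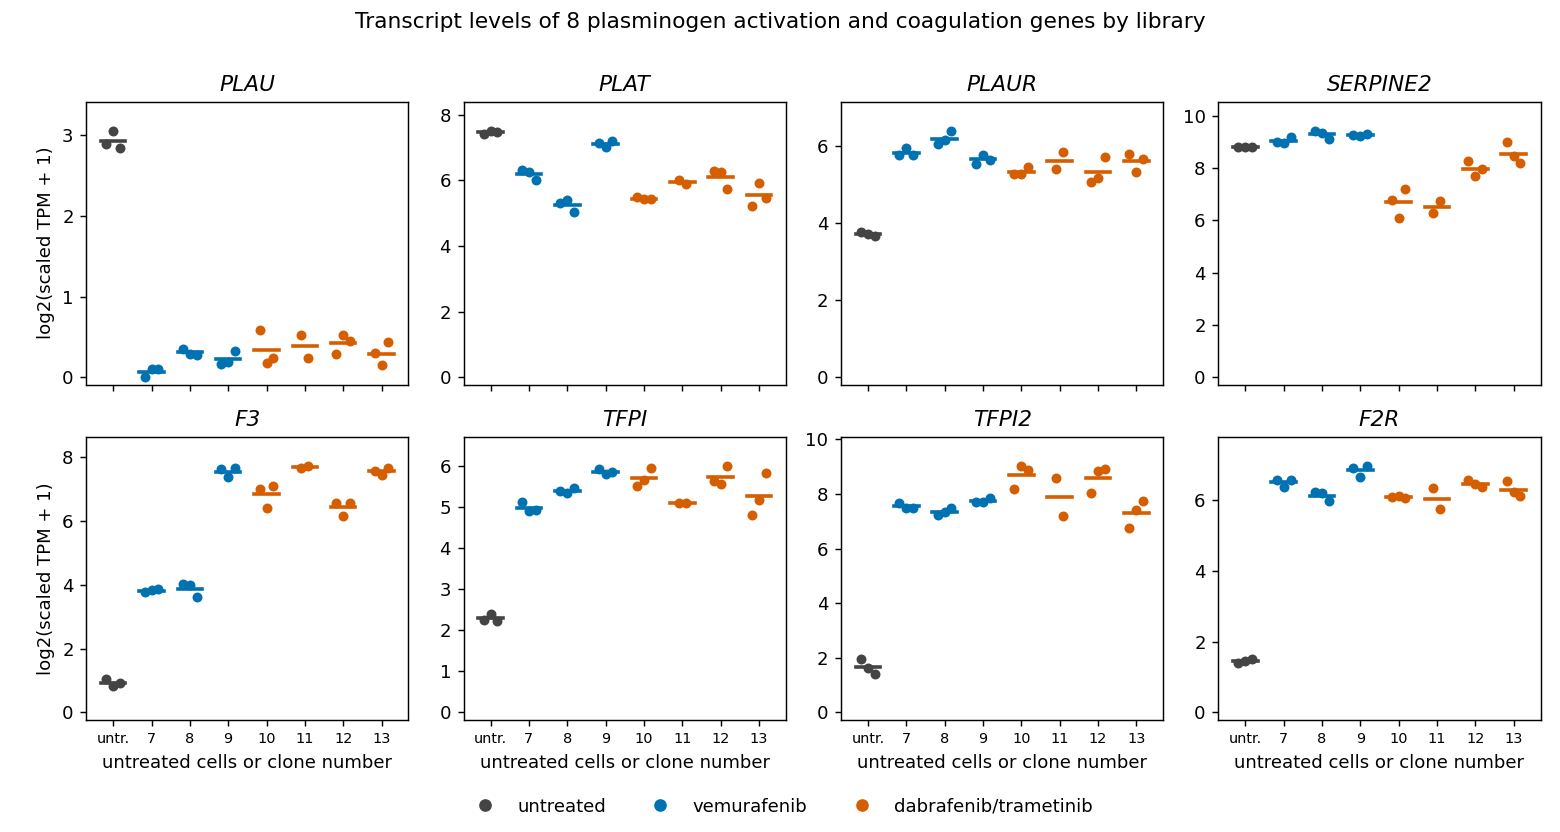
Scaled TPM of the 8 tested genes in each library (points) and the group mean (bars) for untreated cells and clones 7 to 13, as log2(scaled TPM + 1), with untreated cells in grey, vemurafenib clones in blue and dabrafenib/trametinib clones in orange. F3, TFPI, TFPI2, PLAUR and F2R lie above the untreated libraries in all 20 clone libraries and PLAU and PLAT below them, while SERPINE2 lies above them in 10 and below them in 10.

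Promoter sequence was available for 6 of the members, with 8 starts in all, in RefSeq's annotation of GRCh38.p14. A short run of bases past each start was found in a GENCODE transcript of its gene, except for the second start of SERPINE2. The 250 bases before each start were searched on both strands. They are shown for the 3 rising genes whose windows hold the AP-1 motif TGANTCA, given in capitals, and for the second start of PLAU, a falling gene whose window holds none. AP-1 is the family of FOS and JUN dimers that lies downstream of MAP kinase signalling. Each line runs 5′ to 3′ on the strand of the gene.
F3, chr1:94541760-94542009, minus strand: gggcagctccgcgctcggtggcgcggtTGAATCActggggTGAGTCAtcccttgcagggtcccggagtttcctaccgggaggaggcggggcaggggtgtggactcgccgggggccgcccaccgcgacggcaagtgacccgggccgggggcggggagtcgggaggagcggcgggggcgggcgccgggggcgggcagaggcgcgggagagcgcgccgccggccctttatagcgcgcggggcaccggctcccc
TFPI2, chr7:93890754-93891003, minus strand: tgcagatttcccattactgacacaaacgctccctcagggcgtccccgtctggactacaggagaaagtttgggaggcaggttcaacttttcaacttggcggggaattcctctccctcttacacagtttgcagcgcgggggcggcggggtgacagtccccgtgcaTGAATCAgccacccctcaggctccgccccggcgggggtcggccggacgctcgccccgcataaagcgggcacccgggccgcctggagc
PLAUR, chr19:43670170-43670419, minus strand: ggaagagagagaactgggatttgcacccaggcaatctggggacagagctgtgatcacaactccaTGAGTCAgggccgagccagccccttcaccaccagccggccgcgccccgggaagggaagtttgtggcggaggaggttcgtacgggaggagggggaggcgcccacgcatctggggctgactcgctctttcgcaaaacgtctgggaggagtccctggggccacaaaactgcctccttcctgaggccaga
PLAU, second start, chr10:73910882-73911131, plus strand: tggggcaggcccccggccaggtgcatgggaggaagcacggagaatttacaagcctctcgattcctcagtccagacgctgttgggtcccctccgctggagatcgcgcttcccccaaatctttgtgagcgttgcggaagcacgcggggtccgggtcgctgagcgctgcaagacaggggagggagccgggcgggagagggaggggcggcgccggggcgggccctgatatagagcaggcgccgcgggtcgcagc
The motif begins 223 and 210 bases before the start of F3, 87 before that of TFPI2 and 186 before that of PLAUR. Of all 35116 promoters of the same length in the table, 6.57% hold it. The windows of TFPI, of both starts of PLAU and of both starts of SERPINE2 do not have these letters. TFPI is also a rising gene, and its window is not shown. F2R, another rising gene, was not matched and has no window. Sequence further upstream was not searched for any gene. The first start of SERPINE2 has CACGTG, the E-box form read by MITF, 87 bases upstream, as do 6.34% of promoters on either strand. TATAAA was in 10.7% of promoters and, of the 8 windows, in that of F3, 28 bases upstream and on the strand opposite the gene. GGAATG, the letters read by TEAD factors, were in none of the 8 windows and in 11.9% of promoters. The general E-box CANNTG, of which CACGTG is a case, was in 6 windows and in 61.8% of promoters. The GC box GGGCGG was in 5 windows (42.6% of promoters), the NF-kappa-B motif in 7 (54.4%) and the ETS letters GGAAGT in 2 (19.5%). The CRE TGACGTCA, the STAT letters TTCNNNGAA and the SMAD letters GTCTAGAC were in none (1.65, 6.57 and 0.182% of promoters). A match is a run of letters and not a measured binding site, and no binding was measured here.

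Urokinase transcripts were nearly lost in every clone. PLAU (chromosome 10, 73909177 to 73917497, plus strand, GENCODE release 29 on GRCh38) was at 6.44, 7.29 and 6.19 TPM in untreated replicates 1, 2 and 3. In clone 7 it was listed at 0 in replicate 1 and was at 0.0734 and 0.0693 TPM in the others. Its levels were 0.27, 0.225 and 0.215 TPM in clone 8 and 0.117, 0.136 and 0.256 TPM in clone 9. All vemurafenib libraries thus lay at 0.27 TPM or less. Among the dabrafenib/trametinib clones, clone 10 had 0.502, 0.131 and 0.175 TPM, clone 11 had 0.443 and 0.181 TPM, clone 12 had 0.224, 0.434 and 0.366 TPM, and clone 13 had 0.227, 0.109 and 0.348 TPM. All 20 clone libraries lay below the lowest untreated one, and the untreated mean of 6.64 TPM ± 0.576 (SD, n = 3) was 19.5 times the highest clone mean, 0.341 TPM ± 0.107 (SD, n = 3) in clone 12.

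The mean of the clones was lower than untreated cells by a log2 fold change of -2.64 (SE 0.10, limma, adjusted p = 2.69e-14). Single clones ran from -2.87 to -2.51, with every adjusted p at or under 3.23e-11 by limma. This fold depends on the constant added before the logarithm, since the clones are near 0: it was -4.48 with 0.1 added and -1.15 with 5 added, and was called with each. No pair of clones differed by the call rule in limma (0 of 21, with 2 at an unadjusted p under 0.05). That depends on the same constant: with 0.1 added, 3 pairs were called and the range among the clones went from 0.35 to 1.59 (limma F test, adjusted p = 0.275 and 0.0531). The exons of PLAU share 771 bases with C10orf55 on the opposite strand, whose level as deposited was 0.175 to 0.281 TPM in untreated cells and 0 to 0.184 TPM in the clones. Whether strand was used in the estimation is not given in the sources used here.

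PLAT (chromosome 8), the other plasminogen activator and the one whose activity fibrin enhances, fell by unequal amounts. Untreated replicates had 169.5, 179.5 and 177 TPM. Clone 9 came closest to them, with 139.7, 127 and 144 TPM, followed by clone 7 with 77.6, 74.8 and 64 TPM and clone 12 with 77.4, 75.5 and 52.2 TPM. Clone 11 had 63.8 and 58.4 TPM. The lowest levels were in clone 13 with 36.5, 59 and 43.4 TPM, clone 10 with 43.6, 41.9 and 41.9 TPM and clone 8 with 38.9, 41.1 and 31.4 TPM. All 20 clone libraries lay below the lowest untreated one, those of clone 9 by the least. The order is by clone means, which run from 137 TPM ± 8.87 (SD, n = 3) in clone 9 to 37.1 TPM ± 5.09 (SD, n = 3) in clone 8, a ratio of 3.69.

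Against untreated cells the mean of the clones had a log2 fold change of -1.52 for PLAT (SE 0.12, limma, adjusted p = 1.89e-09). Clone 8 had the lowest fold change, -2.22 (limma, adjusted p = 6.74e-10), and clone 9 was not called at -0.36 (SE 0.16, limma, adjusted p = 0.0744). Clone 9 was higher than clones 8, 10, 11, 12 and 13 by the call rule. Its difference of 0.92 from clone 7 (limma, adjusted p = 0.000372) was under the minimum fold. Among the other clones no pair was called, while 15 of all 21 pairs had an unadjusted limma p under 0.05. Clone 7 exceeded clone 8 by 0.94 (limma, adjusted p = 0.000425), also under the minimum fold.

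The urokinase receptor moved opposite to its ligand. PLAUR (chromosome 19, 43646095 to 43670547, minus strand) encodes a lipid-anchored protein that concentrates urokinase at the cell surface. It was at 12.5, 12.1 and 11.6 TPM in untreated replicates. The highest clone was clone 8, with 64.8, 69.9 and 82.5 TPM, and clone 7 followed with 53.3, 61 and 53.5 TPM. Clone 9 had 45.5, 53.6 and 48.6 TPM, clone 11 had 40.9 and 56.3 TPM, and clone 13 had 54.8, 39.3 and 49.7 TPM. Clone 12 had 32.4, 35 and 51.2 TPM and clone 10 had 37.6, 37.3 and 42.4 TPM. All 20 clone libraries lay above the highest untreated one, and libraries of different clones overlapped widely.

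Clone means of PLAUR were 3.24 to 5.99 times the untreated mean of 12.1 TPM ± 0.444 (SD, n = 3). The log2 fold change was 1.94 for the mean of the clones (SE 0.12, limma, adjusted p = 5.83e-11) and 1.60 to 2.48 in single clones. Differences among the clones did not reach the minimum range: the range was 0.88 (limma F test, adjusted p = 0.0017), and no pair was called, with 9 of 21 at an unadjusted p under 0.05. Without clone 12 replicate 3 the range was 1.07 and was called (limma F test, adjusted p = 0.00018), with 1 pair called.

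SERPINE2 (chromosome 2, 223975112 to 224039319, minus strand), also known as protease nexin-1, was the most abundant member in untreated cells and the only one tested that lay on both sides of them. Untreated replicates had 451, 442 and 442 TPM. The vemurafenib clones lay higher, clone 7 with 516, 495 and 577 TPM, clone 8 with 680.1, 643 and 553 TPM and clone 9 with 616, 597 and 624 TPM. Clone 13 straddled the untreated level with 507, 352 and 291 TPM. Clone 12 was below it at 305, 207 and 248 TPM. Clones 10 and 11 were the lowest, at 109, 67.9 and 147 TPM and at 75.8 and 107 TPM. Counted by library, 10 of the 20 lay above the highest untreated one and 10 below the lowest.

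By the call rule SERPINE2 fell in clone 10 (log2 fold change -2.10, SE 0.23, limma, adjusted p = 2.34e-07) and in clone 11 (-2.29, SE 0.25, limma, adjusted p = 3.88e-07). Clone 12 was lower by less than the minimum fold, at -0.83 (limma, adjusted p = 0.00542). Clones 7, 8, 9 and 13 had log2 fold changes of 0.25, 0.49, 0.46 and -0.25, with limma adjusted p of 0.398, 0.0858, 0.109 and 0.383. The mean of the clones, which averages these opposite values, was -0.61 (SE 0.17, limma, adjusted p = 0.00518), under the minimum fold, and with TPM as deposited it was -0.43 (limma, adjusted p = 0.0634).

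The clones differed from each other in SERPINE2 by a range of 2.78 on the log2 scale (limma F test, adjusted p = 1.61e-08). Of the 21 pairs of clones 13 were called, among them 9 of the pairs that join a vemurafenib and a dabrafenib/trametinib clone, 4 within the latter and none within the former. From highest to lowest mean the order was clone 8, clone 9, clone 7, untreated, clone 13, clone 12, clone 10 and clone 11. Of these neighbours, clones 12 and 10 alone differed by the call rule, by 1.27 (limma, adjusted p = 0.00171).

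The balance of urokinase to this inhibitor was read as the ratio of their TPM within a library, which the scaling between libraries does not touch. On a log2 scale the PLAU to SERPINE2 ratio was -6.07 ± 0.13 (SD, n = 3) in untreated cells. Clone 7 had -12.87 ± 0.21 (SD, n = 2, leaving out the replicate listed at 0), clone 9 had -11.90 ± 0.58 (SD, n = 3) and clone 8 had -11.37 ± 0.10 (SD, n = 3). Clone 13 had -10.83 ± 1.01 (SD, n = 3), clone 12 had -9.57 ± 0.77 (SD, n = 3), clone 10 had -8.83 ± 0.99 (SD, n = 3) and clone 11 had -8.31 ± 1.26 (SD, n = 2). Libraries of clones 10, 11 and 12 overlapped, as did those of clones 8 and 9. Clone 13 overlapped clones 8, 9, 10 and 12. The mean of the clones minus untreated cells was -4.46, or -2.07 with 1 added to each TPM. These are ratios of transcripts, described with no test.

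Tissue factor showed the widest spread among the clones. F3 (chromosome 1, 94529225 to 94541800, minus strand) encodes the membrane receptor of factor VII. Untreated replicates had 1.08, 0.767 and 0.883 TPM. Clones 7 and 8 formed a low pair, with 12.6, 13.2 and 13.4 TPM and with 15.2, 14.8 and 11.3 TPM. The third vemurafenib clone, clone 9, had 195, 164 and 198 TPM and lay with the highest. Clone 11 had 200.5 and 207 TPM, clone 13 had 187, 173 and 201 TPM, clone 10 had 125, 83.9 and 136 TPM, and clone 12 had 93.4, 70.6 and 93 TPM. No library of clones 7 and 8 overlapped any of the other clones, whose lowest was 70.6 TPM.

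Clone means of F3 ran from 13.1 TPM ± 0.439 (SD, n = 3) in clone 7 to 203.9 TPM ± 4.82 (SD, n = 2) in clone 11. These are 14.4 and 224 times the untreated mean of 0.91 TPM ± 0.159 (SD, n = 3), and they differ from each other 15.6-fold. The log2 fold change against untreated cells was 2.88 in clone 7 (SE 0.16, limma, adjusted p = 1.41e-11), 2.95 in clone 8, 5.50 in clone 12, 5.90 in clone 10, 6.61 in clone 9, 6.62 in clone 13 and 6.75 in clone 11 (limma, adjusted p = 3.82e-16). With a constant of 5 added in place of 1, clones 7 and 8 came to 1.61 and 1.66 and were still called.

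Across the clones the range of F3 was 3.87 on the log2 scale (limma F test, adjusted p = 4.32e-13), and 13 of 21 pairs were called. Clone 7 was below clone 9 by a log2 difference of -3.73 (limma, adjusted p = 1.93e-11) and clone 8 was below it by -3.66 (limma, adjusted p = 1.31e-11), though all 3 were selected in the same drug. In the order of means, clone 12 exceeded clone 8, its lower neighbour, by 2.55 (limma, adjusted p = 1.09e-09), and clone 7 exceeded untreated cells. The other neighbours were not called. Clone 12 was lower by the call rule than clones 9, 11 and 13, by 1.11, 1.25 and 1.13.

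**Figure D2:**
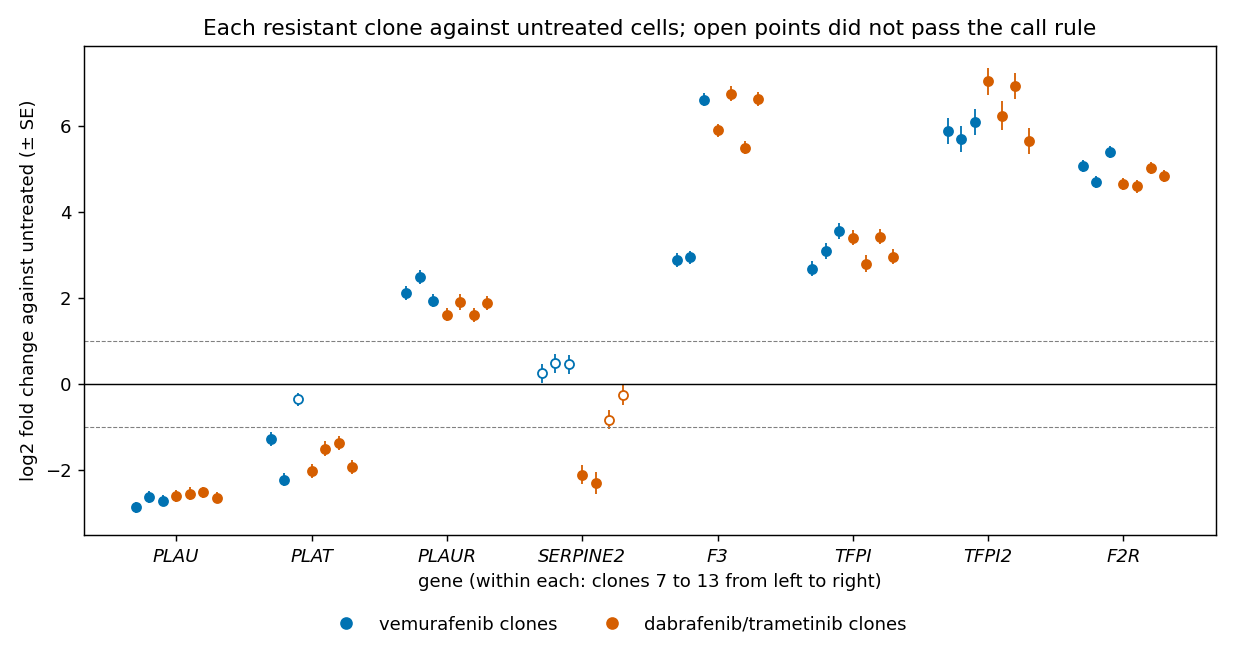
Log2 fold change of each clone against untreated cells for the 8 tested genes (points), with bars of 1 standard error from limma, on the scale of log2(scaled TPM + 1), where open points did not pass the call rule and dashed lines mark its minimum fold of 1. F3 splits into clones 7 and 8 near 2.9 and the others at 5.5 or more, SERPINE2 lies on both sides of 0, and PLAU, PLAUR, TFPI and F2R keep within 1 unit among the clones.

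Tissue factor pathway inhibitor rose with F3 but with a narrower range among the clones. TFPI (chromosome 2, 187464230 to 187565760, minus strand) encodes the protein that shuts down the tissue factor and factor VIIa complex. Untreated replicates had 3.77, 4.28 and 3.7 TPM. Clone 9 had 58.9, 54.2 and 56.7 TPM, clone 12 had 48.7, 46 and 62.1 TPM, clone 10 had 44.4, 49 and 60.6 TPM, and clone 8 had 40.7, 39.3 and 43.1 TPM. Clone 13 had 26.8, 34.9 and 55.4 TPM, clone 11 had 33.3 and 32.9 TPM, and clone 7 had 33.5, 28.9 and 29.4 TPM. All 20 clone libraries lay above the untreated ones.

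The clone means of TFPI were 7.82 to 14.5 times the untreated mean of 3.92 TPM ± 0.32 (SD, n = 3). The mean log2 fold change was 3.13 (SE 0.14, limma, adjusted p = 2.69e-13), with single clones from 2.68 to 3.55. The range among the clones, 0.87 (limma F test, adjusted p = 0.0028), was under the minimum fold, and 0 of 21 pairs were called by limma, with 11 at an unadjusted p under 0.05.

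The ratio of F3 to TFPI within a library separated the clones as F3 did. In untreated replicates it was 0.287, 0.179 and 0.239. Clone 7 had 0.375, 0.457 and 0.457 and clone 8 had 0.374, 0.378 and 0.263, so that TFPI exceeded F3 in all of these libraries. In the other clones F3 exceeded TFPI in every library, from 1.5 to 1.92 in clone 12, 1.71 to 2.82 in clone 10, 3.03 to 3.5 in clone 9, 3.64 to 6.98 in clone 13 and 6.02 to 6.3 in clone 11. The log2 ratio was -2.12 ± 0.34 (SD, n = 3) in untreated cells, -1.23 ± 0.16 (SD, n = 3) in clone 7, -1.58 ± 0.30 (SD, n = 3) in clone 8 and 2.62 ± 0.05 (SD, n = 2) in clone 11.

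**Figure D3:**
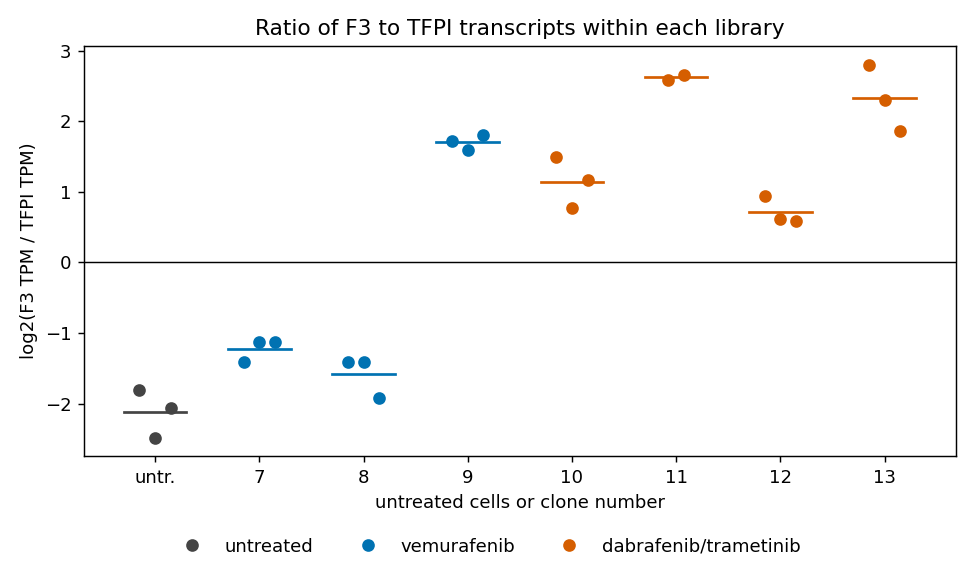
Log2 ratio of F3 to TFPI in TPM for each library (points) with the mean of each group (bars), coloured by drug. Untreated cells and clones 7 and 8 lie below 0, where TFPI exceeds F3, and clones 9 to 13 lie above it.

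TFPI2 (chromosome 7, 93885396 to 93890991, minus strand) had the largest mean rise of the 8 tested members. It encodes a Kunitz-type inhibitor related to TFPI that is deposited in the matrix and inhibits plasmin. Untreated replicates had 2.9, 2.05 and 1.67 TPM. The vemurafenib clones lay close together, with 204, 177 and 176 TPM in clone 7, 151, 161 and 178 TPM in clone 8 and 208, 209 and 227 TPM in clone 9. The dabrafenib/trametinib clones spread more, with 291.5, 515 and 473 TPM in clone 10, 386 and 147 TPM in clone 11, 262, 455 and 478 TPM in clone 12 and 108, 170.1 and 214 TPM in clone 13. Replicates of these 4 clones differed by up to about the distance between clones, clone 11 the most in proportion.

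Clone means of TFPI2 were 73.9 to 193 times the untreated mean of 2.21 TPM ± 0.629 (SD, n = 3). The mean log2 fold change was 6.22 (SE 0.23, limma, adjusted p = 2.72e-14), with single clones from 5.65 to 7.03. The range among clones was 1.39 (limma F test, adjusted p = 0.00244) and was called. Clone 10 was above clones 7, 8 and 13 (limma, adjusted p = 0.00708, 0.00207 and 0.00478), as was clone 12 (limma, adjusted p = 0.0218, 0.00474 and 0.0199). No neighbours in the order of clone means differed by the call rule. TFPI2 shares 44 exon bases with GNGT1 on the opposite strand, which was at 0.22 TPM or less in the clones.

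F2R (chromosome 5, 76716043 to 76735781, plus strand) encodes PAR1, the receptor that thrombin activates by cutting its amino terminus. It was at 1.63, 1.72 and 1.86 TPM in untreated replicates. Clone 9 had 119.5, 100.3 and 124 TPM, clone 7 had 94.3, 82.7 and 95.1 TPM, clone 12 had 94.8, 86.7 and 82.9 TPM, and clone 13 had 92, 73.7 and 68.2 TPM. Clone 8 had 74.7, 72.5 and 61.8 TPM, clone 10 had 67.7, 69.3 and 66.2 TPM, and clone 11 had 80.1 and 52.6 TPM. The lowest clone library, at 52.6 TPM, was far above the highest untreated one.

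Clone means of F2R were 38.3 to 66.04 times the untreated mean. The log2 fold change was 4.89 for the mean of the clones (SE 0.11, limma, adjusted p = 6.7e-18) and 4.59 to 5.40 in single clones, all higher. Among the clones the range was 0.80 (limma F test, adjusted p = 0.00096), under the minimum fold, and no pair was called, with 12 of 21 at an unadjusted p under 0.05. Without clone 11 replicate 2 the range was 1.10 and was called (limma F test, adjusted p = 0.000116), with 1 pair called.

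THBD (chromosome 20, 23045633 to 23049741, minus strand) encodes thrombomodulin, which turns thrombin from a clotting protease into an activator of protein C. It was listed at 0 in 22 of 23 libraries, with 0.00491 TPM in clone 10 replicate 3, and was not tested. A listed 0 can also be a failed estimate: 5350 genes, 15.1% of the table, were listed at 0 in every library, while 0 of 18 housekeeping genes were. No comparison between groups was made for it.

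Compared with each other, the 7 clones differed by the F test in 4 of the 8 members, PLAT, SERPINE2, F3 and TFPI2, where 25.3% of all genes tested differed. Over the 168 combinations of a member and a pair of clones, 37 were called, which is 22%, against 6.16% for all genes and pairs (1.52 to 12.1% in single pairs). F3 and SERPINE2 gave 13 calls each, TFPI2 gave 6 and PLAT gave 5. Clones 7 and 8, and clones 10 and 11, differed from each other in no member by the call rule, where 3.68 and 9.11% of all genes did. Some differences lay under the minimum fold. PLAT in clone 7 minus clone 8 was 0.94 (limma, adjusted p = 0.000425), and F3 in clone 10 minus clone 11 was -0.85 (limma, adjusted p = 0.00137).

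The drug arms were compared over clone means, 3 vemurafenib clones against 4 dabrafenib/trametinib clones. No member was called by limma, where 0.0128% of all genes were, and 3 members had an unadjusted p under 0.05, as did 14.4% of all genes. SERPINE2 came to a mean of 589 TPM over the vemurafenib clones and 209 TPM over the others, a log2 difference of 1.77 (SE 0.48, limma, adjusted p = 0.233). Its clone means did not overlap between the arms, though its libraries did, from 495 to 680.1 TPM against 67.9 to 507 TPM. PLAUR means did not overlap either, at 59.2 against 43.8 TPM on average (log2 difference 0.43, limma, adjusted p = 0.301). Clone means of the arms were apart in this way for 2 of the 8 members and for 14.4% of all genes tested. For F3 the difference was -2.05 (SE 0.87, limma, adjusted p = 0.339), with clone 9 inside the range of the other arm, and leaving out a clone moved it from -1.41 without clone 7 (limma, adjusted p = 0.592) and -1.44 without clone 8 (limma, adjusted p = 0.713) to -3.28 without clone 9 (limma, adjusted p = 0.0974).

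Other genes of both systems were taken as a list of 52, all in the table, of which 26 passed the filter on low values (1 TPM or more in 2 libraries or more). With the mean of the clones, 10 of the 26 were called higher, 0 lower by limma (3 lower at an unadjusted p under 0.05) and 16 not called. Over all genes tested, 10.9% were called higher and 7.91% lower, and 29.6% were lower at an unadjusted p under 0.05. The median log2 fold change of the 26 was 0.72, against -0.01 over all genes tested. This list was also chosen with earlier results of these data known, so these values describe it and test nothing. In the plasminogen system 7 of 13 were called higher, with a median of 1.03, and in coagulation 3 of 13, with a median of 0.56. Prothrombin (F2), F5, F7, F9, F10, F11, plasminogen (PLG) and the 3 fibrinogen chains, proteins made mainly by the liver, were below the filter, and F9 was listed at 0 in every library.

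SERPINB2, a serpin that inhibits urokinase, was called higher in 6 clones. Its mean was 0.134 TPM in untreated cells, 1.51 TPM in the lowest clone (clone 9) and 36.3 TPM in the highest (clone 7), a mean log2 fold change of 2.51 (SE 0.38, limma, adjusted p = 1.42e-05). Added constants of 0.1 and 5 moved its fold change to 4.46 and 1.18. Clones 9 and 7, which bound that range, belong to the same drug arm.

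The collagen receptor MRC2, a partner of the urokinase receptor, rose from 0.755 TPM to between 18.4 TPM in clone 12 and 121 TPM in clone 9 (mean log2 fold change 4.58, limma, adjusted p = 1.14e-17), or 3.01 with a constant of 5. LRP1, which takes up complexes of protease and serpin, rose from 20 TPM to between 50 TPM in clone 8 and 115 TPM in clone 9 (1.98, limma, adjusted p = 5.32e-12). Clone 9 was thus the highest in both of these receptors.

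On the coagulation side, the thrombin receptor F2RL2 (PAR3) rose from 0.165 TPM to between 14.7 TPM in clone 8 and 82.7 TPM in clone 9 (mean log2 fold change 4.97, limma, adjusted p = 1.93e-14), or 2.99 with a constant of 5. The endothelial protein C receptor, PROCR, which holds protein C at the cell surface, rose from 13.9 TPM ± 0.539 (SD, n = 3) to between 38 TPM in clone 11 and 105 TPM in clone 13 (2.15, limma, adjusted p = 1.62e-12). PROCR was thus present in every group, while THBD, which acts beside it on protein C, was listed at 0 in nearly every library.

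**Figure D4:**
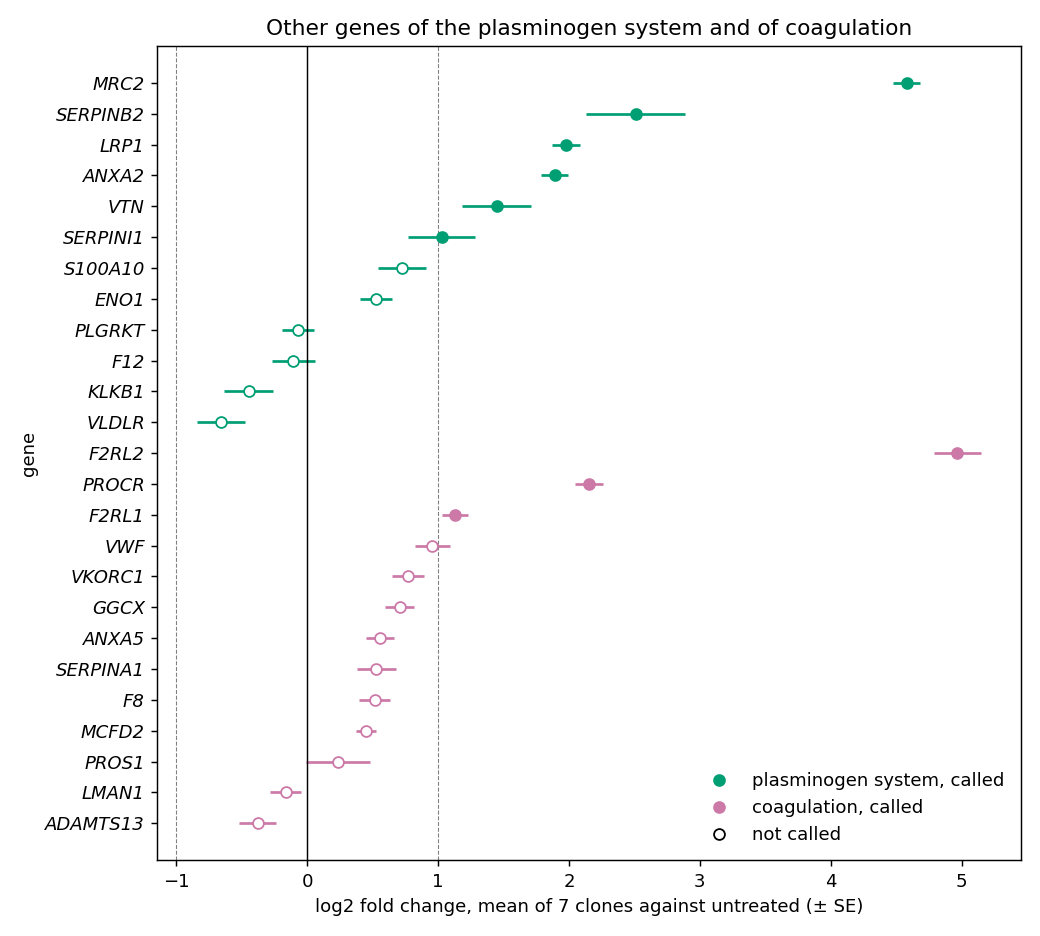
Mean log2 fold change of the 7 clones against untreated cells for 25 of the 26 other pathway genes tested (points), with bars of 1 standard error from limma, plasminogen system in green, coagulation in pink, and open points for genes not called. F2RL2 at 4.97 and MRC2 at 4.58 are the highest shown, and no gene was called lower.

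For the 3 members with the widest range among clones, the genes with the most similar pattern were found by Pearson's r over the 8 group means on the log2 scale, as a description. These means share libraries and scaling and are not independent, and the candidates were genes that differed among the clones by the F test with a range of at least 0.5 times that of the member. For F3 they were MFAP4, a microfibril-associated matrix protein (r = 0.975), and FHL1, a LIM-domain protein (r = 0.959), out of 1040 candidates. MFAP4 was at 0.361 TPM in untreated cells, 7.43 TPM in clone 8 and 391 TPM in clone 13. For SERPINE2 they were RP4-800M22.1 (r = 0.974) and the ribosomal protein gene RPL41 (r = 0.934), out of 2117. RP4-800M22.1 was low throughout, at 3.66 TPM in untreated cells, 1.22 TPM in clone 10 and 4.46 TPM in clone 8. For PLAT they were DPYSL4 (r = 0.927) and the transcription factor gene ZIC1 (r = 0.925), out of 3957.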

How the data were processed

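Paired-end libraries of poly(A) RNA were made after the samples were put in random order, per the labels' protocols. The deposited table holds 1 value per gene and library for 23 libraries. Its values were read as TPM because each column has the same total, although the authors named the table as counts. Per the submitters' processing notes, kallisto and hg19 were used, with no version. The transcript annotation, the summing to genes and the handling of strand were not given in the sources used here. Since depth cannot be read from TPM, no counting interval is given.

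Libraries were divided by a trimmed mean of log ratios (30% and 5% trimmed, over 10822 genes; divisors 0.743 to 1.14). This moved the fold changes of all genes: their median was -0.01 after scaling and 0.14 as deposited. The 15657 genes at 1 TPM or more in 2 libraries or more were tested as log2(scaled TPM + 1), a scale on which fold changes of low genes come out too small. One limma fit (3.58.1, R 4.3.3, lmFit and eBayes with a trend) held 8 groups, and 21 clone pairs, an F test with 6 degrees of freedom and the drug arms over clone means followed. The script was tested on simulated data. Alternatives were other scalings, added constants, filters, weights, a replicate block and libraries left out.

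The members and the gene lists were chosen with earlier results of these data known. The text names all 9 members, up to 6 rising and 6 falling genes of the wider list with a mean of at least 4 TPM in some group, and for the 3 members with the widest range the genes most like them. A gene that this rule names is not reported here. Gene positions come from GENCODE release 29 on GRCh38, not from the build of the table, and promoters from RefSeq on GRCh38.p14, where F2R and THBD were not matched. Sequence of PLAT is not shown.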

Additional observations from a re-analysis of the deposited data

Results flagged for a closer look

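SERPINE2 had log2 fold changes of different sign between clones set against the same untreated libraries. The range of its log2 fold changes over the 7 clones was 2.78 (limma F test for equality of the clones, adjusted p = 1.61e-08), with clones 7, 8 and 9 at values above 0, none of them past the call rule, and clones 10, 11, 12 and 13 at values below 0, of which clones 10 and 11 were called lower.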

How the results depend on the processing

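For single genes, 2864 values were recomputed over 86 results, and 2857 kept their direction and their side of the threshold. The range among clones passed the threshold for PLAUR without clone 12 replicate 3 and for F2R without clone 11 replicate 2. The difference between the drug arms changed sign for TFPI and for PLAT. TFPI, at -0.04, came to 0.032 without clone 13 replicate 3, 0.176 without clone 7, 0.047 without clone 10 and 0.055 without clone 12. Without clone 9 it came to -0.258. PLAT, at 0.42, came to -0.042 without clone 9 and 0.89 without clone 8. None of these was called by limma. Of 1006 counts and ratios recomputed, 1001 stayed within 1.5 times the count or 1 SD of the ratio. With 1 added to each TPM, the mean log2 ratio of PLAU to SERPINE2, clones minus untreated cells, moved from -4.46 to -2.07, since PLAU in the clones lies below the constant. That of F3 to TFPI moved from 2.93 to 2.14. Its untreated value went from -2.12 to -1.32, as untreated F3, 0.706 to 0.923 TPM as deposited, is below the constant. The other 3 that moved were counts of pairs of clones called. They went from 0 to 3 for PLAU with a constant of 0.1, and from 0 to 1 for PLAUR and F2R without the libraries named above. Leaving out a library gave 32 to 40 member calls over the clone pairs and 4 to 5 by the F test. Replicate numbers were checked for pairing: over 77 pairs of libraries with the same number the correlation of their deviations had a median of 0.0143 and 28 exceeded 0.1, so the number was not taken as a pairing. With the replicate block the mean of the clones still gave 5 members higher and 2 lower, and F3 was at 5.32. The unknown depth limits PLAU and THBD, whose clone values lie near or at 0. The fit of only the groups compared is no separate setting for the mean of all clones, since all groups enter it.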
